A study of Mus musculus with 6 samples.

Results

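The genes described here encode 5 mouse galectins, Lgals1, Lgals2, Lgals3, Lgals8 and Lgals9, and the galectin-binding glycoprotein Lgals3bp. They are 6 of the 18193 genes with a probe set of their own on the array, and 9 of its 45037 probe sets name 1 of them alone. Lgals1, Lgals2 and Lgals8 have 2 probe sets each, and Lgals3, Lgals3bp and Lgals9 have 1. Where a gene has several probe sets, the one with the brighter mean signal gives its level. The family was chosen with these data in view, for the higher Lgals3 level at day 7 and for the line difference of Lgals2 at day 4. Those contrasts are therefore given as values, with no test.

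Gene expression was measured on 6 Affymetrix arrays, 1 per line and day, at days 0, 4 and 7 of 2 lines of mouse embryonic stem cells. Both lines, day 0 cells included, are knockouts of Dnmt1, Dnmt3a and Dnmt3b, the genes of the DNA methyltransferases, and express a DNMT1 form ubiquitously. TKO_FL expresses the complete protein and TKO_602 a deletion mutant without the N-terminal 602 amino acids. Day 0 cells grew in 10% fetal bovine serum and LIF, the leukaemia inhibitory factor that keeps stem cells undifferentiated. Day 4 cells were kept without LIF, for 1 day as embryoid bodies and then for 3 days attached to the plate. Day 7 cells had 3 more days in medium with 10% KSR and 10 ng/ml Activin A, a TGF-beta family ligand added by the submitters to induce a primitive streak fate. The promoter behind each DNMT1 form and the number of clones per line are not stated in the labels. The DNMT1 form and the line cannot be told apart, and time, medium and Activin A go together from day 4 to day 7. TKO_602's day 0 sample carries a source label of differentiated cells, against its title. Its title was followed, and the fitted changes from day 0 to day 4 and the correlations are also given without it.

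Galectins are lectins that bind beta-galactoside sugars on glycoproteins and glycolipids. They are made in the cytosol, leave the cell without a signal peptide and act both inside cells and on cell surfaces. Galectin-1 and galectin-2 have a single carbohydrate-binding domain and form dimers. Galectin-3 joins such a domain to a proline- and glycine-rich tail, and galectin-8 and galectin-9 carry a tandem pair of domains. Galectin-3, also known as the macrophage antigen Mac-2, is made by many epithelia and by the trophectoderm of the embryo. Lgals3bp, the Mac-2-binding protein, is not a galectin but a secreted scavenger-receptor glycoprotein. Galectin-3, galectin-8 and galectin-9 are recruited to damaged endosomes and lysosomes.

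The sequence before the annotated start is shown for Lgals3 and Lgals9, the members more than 2-fold above their day 4 level at day 7 in both lines, and for Lgals2, the member with the line difference at day 4. Each is the 250 bases upstream of the RefSeq start in build GRCm38.p6, 5′ to 3′ on the gene's strand, with CpG dinucleotides, the sites of DNA methylation, in capitals. The windows are chr14:47373610-47373859 on the plus strand for Lgals3, chr11:78984925-78985174 on the minus strand for Lgals9 and chr15:78855530-78855779 on the minus strand for Lgals2.
Lgals3: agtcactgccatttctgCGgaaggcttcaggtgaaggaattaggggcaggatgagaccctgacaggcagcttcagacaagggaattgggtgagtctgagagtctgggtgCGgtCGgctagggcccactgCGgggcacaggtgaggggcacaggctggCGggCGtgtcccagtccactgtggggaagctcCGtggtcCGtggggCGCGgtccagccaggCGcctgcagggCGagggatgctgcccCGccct
Lgals9: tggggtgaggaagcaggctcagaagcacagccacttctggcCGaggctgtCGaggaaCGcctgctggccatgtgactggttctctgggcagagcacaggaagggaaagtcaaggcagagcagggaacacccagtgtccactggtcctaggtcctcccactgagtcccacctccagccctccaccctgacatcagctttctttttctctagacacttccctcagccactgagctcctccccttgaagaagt
Lgals2: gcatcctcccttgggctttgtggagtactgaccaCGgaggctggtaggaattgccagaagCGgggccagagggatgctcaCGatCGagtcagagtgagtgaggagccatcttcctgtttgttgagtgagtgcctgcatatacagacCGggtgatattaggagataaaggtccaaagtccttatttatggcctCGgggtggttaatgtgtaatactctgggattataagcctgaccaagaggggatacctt
The Lgals3 window holds 13 CpGs, and 31.5% of the 32851 promoter windows in the RefSeq table hold as many or more. The Lgals2 window holds 6, which is also the median of all windows, and the Lgals9 window holds 3. Lgals8 has 4 CpGs and Lgals3bp 2. These 5 members matched the table. The motifs GGGCGG (Sp1 family), TGANTCA (AP-1), TATAAA and GAAANNGAAA (interferon response element) were searched on both strands, of which GGGCGG holds a CpG itself. GGGCGG was found in 1 of the 5 windows, that of Lgals3, 1 base before the start, and is present in 32.7% of all windows. GAAANNGAAA was found in 1 window, that of Lgals9, 45 bases before the start, and is present in 2.98% of all windows. TGANTCA and TATAAA, present in 6.75% and 12.4% of all windows, were in none of the 5. Methylation of these sites was not measured in these arrays.

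Levels are log2 MAS5 signals, so a difference of 1 is a 2-fold change. All 6 members had a mean signal at or above a floor of log2 5.37 and so were among the 13277 genes tested. With 1 array per line and day there are no replicates. The number of arrays limits the precision, and the SE of a fitted value comes from how far the lines differ in a change, or the days in a line difference, moderated by limma towards the spread of all genes of like level. A p-value rests on that spread between arrays, part of which may be technical. In bulk RNA, fewer cells of a type and less RNA per cell cannot be told apart. Array medians lay between 6.02 and 6.19. The 9 pluripotent stem cell markers were above the floor on all 6 arrays, with summed signals from 80525 to 141038. Of the 9, 2 were called lower at day 4, Klf4 (log2 -3.63, SE 0.18, limma adjusted p = 0.00074) and Esrrb (log2 -1.68, SE 0.27, limma adjusted p = 0.035).

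Lgals3 had a level of 10.96 at day 0, 10.18 at day 4 and 12.95 at day 7 in TKO_FL. In TKO_602 the levels were 10.80, 10.61 and 13.04. Both day 7 arrays lay above the other 4 arrays, and the lines differed by 0.43 or less on each day. From day 4 to day 7 the level was 6.82-fold higher in TKO_FL and 5.39-fold higher in TKO_602. The fitted difference was log2 2.60 (SE 0.19), the 11th highest of 13277 genes, which is a value the choice of the family used. Against day 0, day 7 was 1.99 higher on the log2 scale in TKO_FL and 2.24 higher in TKO_602. The fitted day 7 over day 4 difference stayed between 2.37 and 2.83 when any 1 array was left out.

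Lgals9, a galectin of the tandem-repeat kind known as a ligand of the immune receptor TIM-3, had levels of 7.95, 7.17 and 9.91 at days 0, 4 and 7 in TKO_FL. In TKO_602 it had levels of 8.33, 7.40 and 8.87. In both lines day 4 was the lowest and day 7 the highest. The day 7 over day 4 difference was 2.74 on the log2 scale (6.68-fold) in TKO_FL and 1.47 (2.77-fold) in TKO_602. The fitted value was 2.11 (SE 0.40). At day 7 TKO_602 was 1.04 lower than TKO_FL on the log2 scale, while at days 0 and 4 it was 0.38 and 0.23 higher. Leaving out TKO_FL's day 7 array gave a fitted day 7 over day 4 value of 1.43.

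Lgals8, whose human protein recruits the autophagy receptor NDP52 (Calcoco2) to damaged vesicles, followed the same order of days at a smaller size at its brighter probe set. Its levels were 8.06, 7.67 and 8.83 in TKO_FL and 7.83, 7.47 and 8.41 in TKO_602. The day 7 over day 4 difference was 1.16 and 0.94 on the log2 scale, with a fitted value of 1.05 (SE 0.29). The dimmer Lgals8 probe set gave 1.24 in TKO_FL but 0.39 in TKO_602, and read 8.21 and 6.91 at day 7. In TKO_602 it read 7.08 at day 0 and 6.52 at day 4, so day 7 was not its highest day in that line. Probe sets for Lgals8 therefore disagree on the size of the day 7 line difference, which was -0.42 at the brighter and -1.30 at the dimmer.

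Counted over the family, 3 of 6 members were at least 2-fold higher at day 7 than at day 4 in TKO_FL and 2 of 6 in TKO_602. Over all genes these shares were 5.2% and 4.78%. In both lines at once the members were Lgals3 and Lgals9, against 1.4% of all genes. Since the family was chosen on this contrast, nothing is read from that comparison. The median day 7 over day 4 change of the 6 members was 1.07 in TKO_FL and 0.83 in TKO_602, beside 0.02 and -0.01 for all genes. Across the 6 arrays, which share lines and days and are not replicates, Lgals3 correlated with Lgals8 at r = 0.91 and with Lgals9 at r = 0.90, and Lgals8 with Lgals9 at r = 0.94. Without TKO_602's day 0 array these were 0.90, 0.93 and 0.97. Correlations of the other pairs of members ran from -0.78, for Lgals2 with Lgals3bp, to 0.57, for Lgals1 with Lgals9.

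**Figure D1:**
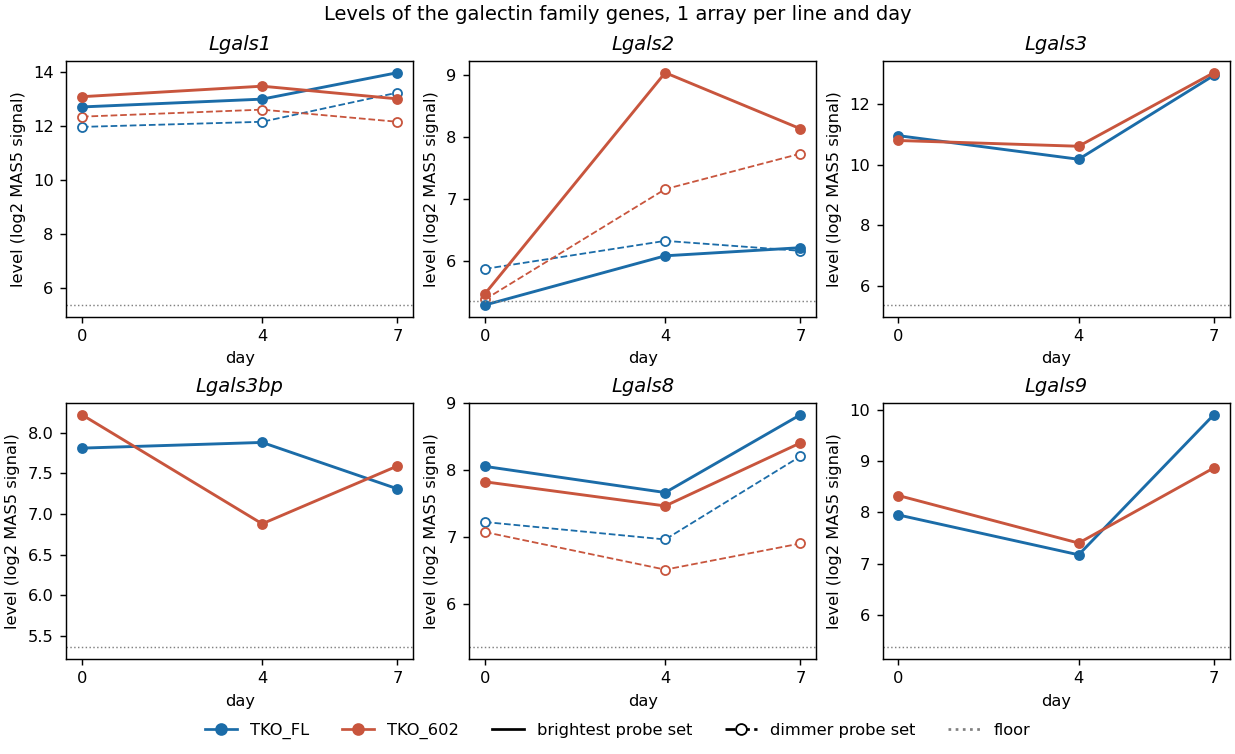
Level (log2 MAS5 signal, vertical axis) of each galectin family gene at days 0, 4 and 7 (horizontal axis), 1 array per point, with TKO_FL in blue, TKO_602 in red, dimmer probe sets dashed and the floor dotted. Lgals3, Lgals8 and Lgals9 are lowest at day 4 and highest at day 7 at their brightest probe sets in both lines, and Lgals2 is highest in TKO_602 at days 4 and 7.

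Lgals2, a dimer-forming galectin best known from the gut, had levels of 5.30, 6.09 and 6.22 at days 0, 4 and 7 in TKO_FL. In TKO_602 it had levels of 5.48, 9.03 and 8.13. TKO_602's arrays of days 4 and 7 lay above the other 4, which were all within 1 log2 unit of the floor. The line difference, TKO_602 minus TKO_FL, was 0.12 at day 0, where the TKO_FL level was below the floor, 2.94 at day 4 (7.67-fold) and 1.91 at day 7 (3.76-fold). Of 13277 genes it had the highest line difference at day 4, which is the value it was chosen for. The fitted line difference was 1.65 (SE 0.50), and it ran from 1.01 without either day 4 array to 2.42 without either day 0 array.

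The dimmer Lgals2 probe set gave a smaller day 4 difference. It read 5.88, 6.33 and 6.17 in TKO_FL and 5.39, 7.16 and 7.73 in TKO_602. Its line difference was -0.49 at day 0, 0.83 at day 4 and 1.56 at day 7. Both probe sets placed TKO_602 higher at days 4 and 7, and they disagreed on whether day 4 or day 7 was the higher in that line. The brighter set carries the suffix of probe sets that can match transcripts of more than 1 gene.

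Lgals1, an abundant galectin that is also made by fibroblasts and by the trophectoderm, had levels of 12.71, 13.0 and 13.98 in TKO_FL. In TKO_602 it had levels of 13.09, 13.48 and 13.01. The TKO_FL day 7 array was the highest of the 6. The day 7 over day 4 change was 0.98 in TKO_FL and -0.47 in TKO_602, so the lines moved in opposite directions. The other Lgals1 probe set gave 1.08 and -0.45. The fitted value over both lines was 0.26 (SE 0.33), and it turned to -0.445 without TKO_FL's day 7 array and to -0.13 without its day 4 array. Against day 0, day 7 was 1.27 higher in TKO_FL at both probe sets, and TKO_602 changed by -0.08 and -0.19.

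Lgals3bp had levels of 7.81, 7.88 and 7.31 in TKO_FL and 8.22, 6.88 and 7.59 in TKO_602. TKO_602's day 4 array was the lowest of the 6 and its day 0 array the highest. From day 0 to day 4 TKO_FL differed by 0.07 and TKO_602 by -1.34, and from day 4 to day 7 they differed by -0.57 and 0.71. At day 7 both lines were below their own day 0 level, by -0.50 and -0.63 on the log2 scale. Lgals3bp thus did not share the order of days seen for Lgals3, whose protein it binds.

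Line differences at least 2-fold in size were seen for 0 of 6 members at day 0, for Lgals2 and Lgals3bp at day 4, and for Lgals2 and Lgals9 at day 7. The shares over all genes were 5.97%, 5.97% and 12.9%. Lgals3bp at day 4, with a difference of -1.0, lay at that limit. Lgals1 at day 7, with -0.97, lay just short of it. The fitted line difference was above 0 for Lgals2 and Lgals3 and below 0 for the other 4 members. Without either day 7 array it was above 0 for 4 members, when Lgals1 and Lgals9 had values of 0.43 and 0.30.

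**Figure D2:**
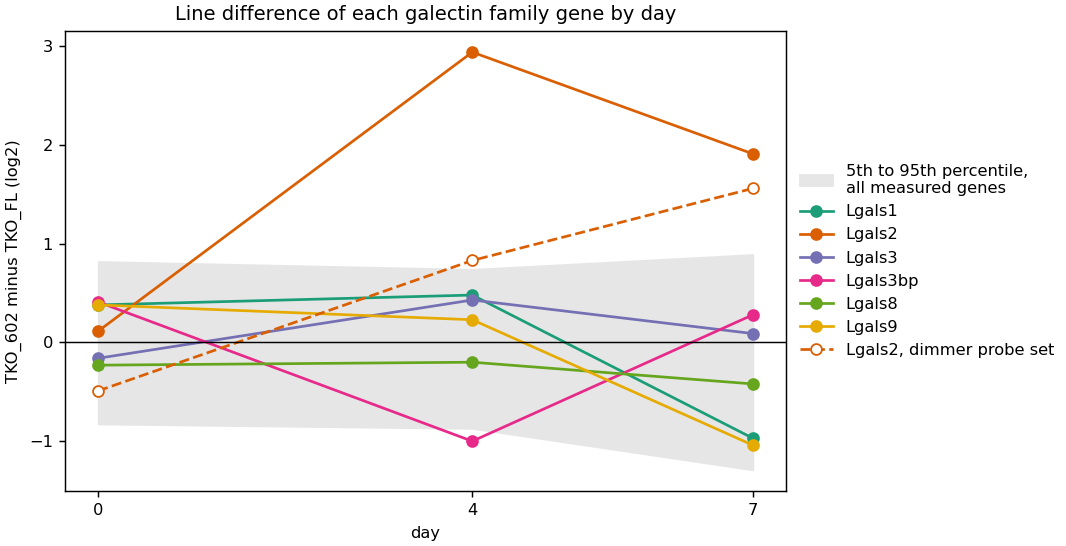
TKO_602 minus TKO_FL (log2, vertical axis) for each galectin family gene at days 0, 4 and 7 (horizontal axis), with the range from the 5th to the 95th percentile of all 13277 measured genes in grey. Lgals2 lies at 2.94 at day 4 and 1.91 at day 7, its dimmer probe set (dashed) at 0.83 and 1.56, and Lgals3bp at -1.0 at day 4.

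The change from day 0 to day 4, when LIF was withdrawn, was not named in the choice of the family, though it shares the day 4 arrays with the contrasts that were. It was tested with limma in an additive model of line and day over the 6 arrays. None of the 6 members passed an adjusted p of 0.05 (0 of 6), beside 1.58% of all genes. At an unadjusted p under 0.05 there were 2 of 6 members, Lgals2 and Lgals3, beside 16.2% of all genes. The whole test called 210 genes, and 0 when any 1 of the 4 arrays of days 0 and 4 was left out, TKO_602's day 0 array included, so each gene called below rests on all 4. Lgals2 had a fitted difference of 2.14 (SE 0.62, limma adjusted p = 0.144), higher at day 4 in 2 of 2 lines, by at least 0.73 in TKO_FL and by 3.55 in TKO_602. Lgals3 had a fitted difference of -0.485 (SE 0.19, limma adjusted p = 0.267), lower at day 4 in 2 of 2 lines.

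Lgals9 was lower at day 4 by -0.78 and -0.93 on the log2 scale (limma adjusted p = 0.346), and Lgals8 by -0.39 and -0.36 (limma adjusted p = 0.593). For Lgals1 and Lgals3bp the limma adjusted p was 0.679 and 0.518. Without TKO_602's day 0 array, whose labels disagree, the fitted differences were 0.98 for Lgals2, -0.695 for Lgals3, -0.46 for Lgals9, -0.335 for Lgals8, 0.65 for Lgals1 and -0.25 for Lgals3bp. The median fitted day 4 over day 0 difference of the 6 members was -0.43, beside 0.045 for all genes, and -0.29 without that array.

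**Figure D3:**
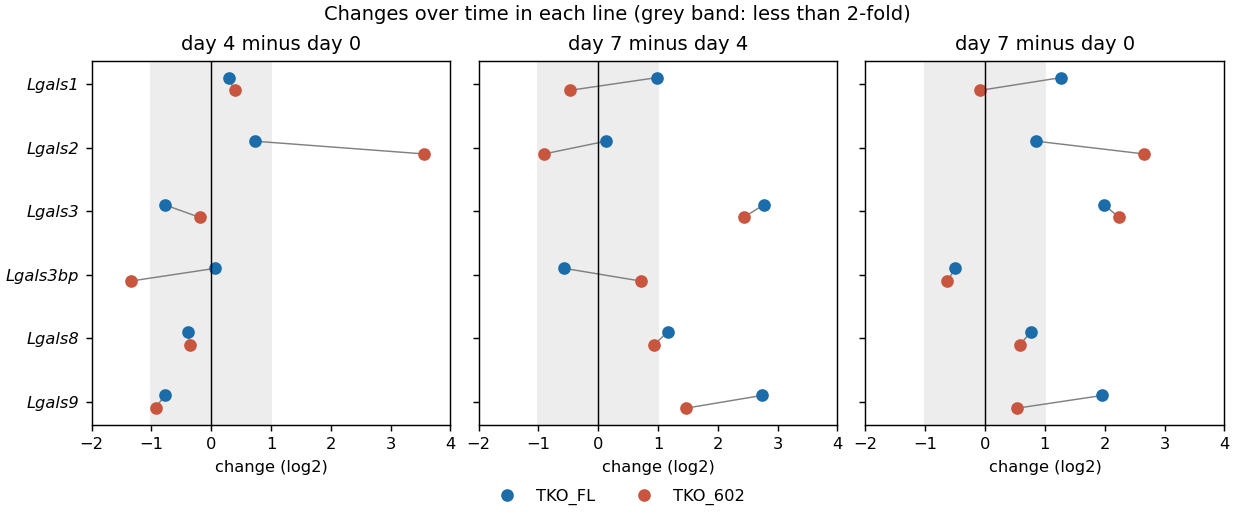
Change on the log2 scale (horizontal axis) of each galectin family gene (vertical axis) between days in TKO_FL (blue) and TKO_602 (red), 1 array against 1, with changes under 2-fold in the grey band. Lgals3 and Lgals9 are past 2-fold in both lines from day 4 to day 7, and Lgals1 and Lgals3bp lie on opposite sides of 0 in the lines.

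The other galectin genes with a probe set were Lgals4, Lgals7, Lgals12, Lgalsl and Grifin, of which 3 were tested and 0 passed the test for day 4 over day 0. Lgals7, the galectin of stratified epithelia, had levels of 7.04 and 7.50 at day 0 and was below the floor at day 4 in both lines. Its fitted difference was -1.91 (SE 0.48, limma adjusted p = 0.103), with both day 4 arrays set to the floor. At day 7 it read 7.14 in TKO_602 and was below the floor in TKO_FL. Lgalsl, a galectin-like gene, had levels between 9.66 and 10.90, with its highest level in each line at day 7.

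Galectins act through the sugars and proteins they bind. Of 22 measured galectin-binding glycoproteins, 1 fell from day 0 to day 4, 0 rose and 21 were not called, with a median difference of 0.045, the same as for all genes. The gene that fell was Cd44, the hyaluronan receptor that also binds galectin-9 (log2 -2.80, SE 0.42, limma adjusted p = 0.030). Its levels went from 9.31 to 6.79 in TKO_FL and from 9.30 to 6.22 in TKO_602, and 2 dimmer probe sets gave -2.90 and -2.09. With the probe sets of a gene averaged, 0 of the 22 were called. A further Cd44 probe set lay below the floor on all 6 arrays. Lamp2, a lysosomal membrane glycoprotein, had levels of 10.98, 10.63 and 11.40 in TKO_FL and of 10.81, 10.61 and 11.18 in TKO_602. The TIM-3 gene Havcr2 was below the floor on 5 of the 6 arrays.

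Among the enzymes that build the galactose-bearing glycans, 0 of 28 measured genes were called for day 4 over day 0 and 7 of 28 had an unadjusted p under 0.05, beside 1.58% and 16.2% of all genes. The median difference was 0.28, beside 0.045 for all genes. The brightest of them, the galactosyltransferase gene B4galt6, lay between 11.15 and 11.91, and B3gnt2, which extends poly-N-acetyllactosamine chains, between 10.62 and 11.55. B4galt4, B3gnt5 and St3gal6 were 2-fold or more above day 0 at day 4 in both lines, 3 of 28 beside 3.07% of all genes. They are named after their values were seen, with limma adjusted p from 0.096 to 0.224. The dimmer B3gnt5 probe set gave 0.68 in TKO_602, short of 2-fold. A dimmer St3gal6 probe set gave 0.85 in TKO_FL, also short of it, while another gave 1.10 in TKO_FL and 1.39 in TKO_602.

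Of the genes that respond to lysosome damage, 0 of 17 were called for day 4 over day 0, and 3 had an unadjusted p under 0.05, a share near the 16.2% of all genes. Vcp and Ubqln1, the brightest of them, lay between 12.91 and 13.66. At day 7, 2 of the 17 were at least 2-fold above day 4 in both lines, beside 1.4% of all genes. They were named after their values were seen, and no test was run on this pair. Calcoco2, whose human protein NDP52 binds galectin-8, had levels of 11.01, 9.66 and 10.69 in TKO_FL and of 10.55, 9.76 and 12.58 in TKO_602. Trim16, a ubiquitin ligase that binds galectin-3 at damaged vesicles, had levels of 5.89, 5.23 and 6.79 and of 6.86, 5.65 and 7.42. Both were lowest at day 4, which follows in part from their choice for a day 7 level above day 4. Trim16 was below the floor on TKO_FL's day 4 array, and a dimmer Trim16 probe set was below the floor on 5 arrays. Tbk1, of the same list, was highest at day 4 in both lines. The median day 7 over day 4 change of the list was 0.32 in TKO_FL and 0.13 in TKO_602.

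Interferon induces Lgals9 and Lgals3bp in many cell types, and a list of interferon response genes was read beside them. Of 19 measured genes, 0 were called for day 4 over day 0 and 9 had an unadjusted p under 0.05, beside 1.58% and 16.2% of all genes. The median difference was 0.485, beside 0.045 for all genes. Bst2 read 11.13, 12.12 and 11.87 in TKO_FL and 10.98, 12.24 and 10.85 in TKO_602 (limma adjusted p = 0.091). The median change of the list from day 4 to day 7 was 0.04 in TKO_FL and -0.03 in TKO_602. At day 7, 3 of the 19 were at least 2-fold above day 4 in TKO_FL and 1 of 19 in TKO_602, beside 5.2% and 4.78% of all genes, and 0 in both lines. The 3 in TKO_FL, named after their values were seen, were Rsad2 (1.95 on the log2 scale), Irf7 (1.48) and Usp18 (1.11). At day 7 TKO_602 differed from TKO_FL by -1.94 for Rsad2, -1.60 for Irf7 and -1.38 for Usp18, beside -1.04 for Lgals9. Usp18 was below the floor on all 3 TKO_602 arrays, so its value is a difference to the floor. The 3 interferon genes were picked for their TKO_FL day 7 level, so a lower TKO_602 level follows in part from that choice. The median day 7 line difference of the list was -0.54, beside -0.05 for all genes. Genes such as Oasl2 (0.73) and Oas1a (0.47) went the other way. The part of an interferon response in the Lgals9 levels was not tested.

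Markers of cell types known for galectins were read on the same arrays, and their part in the galectin levels was not tested. Their calls also depended on the choice of probe sets: with those of a gene averaged, 0 macrophage, 1 trophoblast, 0 visceral endoderm and 2 fibroblast markers were called. Of 10 measured macrophage and myeloid markers, 1 fell from day 0 to day 4 and 9 were not called. The one that fell was Lyz2, with a fitted log2 difference of -4.70 (SE 0.65, limma adjusted p = 0.024) and TKO_602's day 4 array set to the floor. The summed signal of the 13 such markers with a probe set was 2312, 1350 and 2143 at days 0, 4 and 7 in TKO_FL and 5865, 1573 and 1594 in TKO_602. The highest sum was on TKO_602's day 0 array, whose labels disagree. On that array Lyz2 alone read 11.60, and Lgals3 read 10.80. Of the 10 markers, 1 was at least 2-fold higher at day 7 than at day 4 in both lines, beside 1.4% of all genes. This was Csf1r, the macrophage growth factor receptor gene, with levels of 6.86, 7.10 and 8.88 in TKO_FL and of 8.24, 6.31 and 8.52 in TKO_602. Cd68, also highest at day 7 in both lines, had levels of 9.30, 7.98 and 9.81 in TKO_FL and of 8.77, 8.81 and 9.33 in TKO_602. Both are named after their values were seen. The median change of the 10 markers from day 4 to day 7 was -0.05 in TKO_FL and 0.02 in TKO_602. Coro1a, of the same list, was lower at day 7 than at day 4 in both lines (-0.56 and -1.94). Itgam and Aif1 were below the floor on all 6 arrays, with Itgam listed at 0 on TKO_FL's day 0 array, and Ptprc was at most 5.88.

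Trophoblast markers had 2 of 12 genes called higher at day 4, the simple-epithelium keratin genes Krt8 (log2 3.8, SE 0.31, limma adjusted p = 0.0051) and Krt18 (log2 3.28, SE 0.17, limma adjusted p = 0.00074), with 10 not called. Their summed signal was 4494, 26223 and 61236 at days 0, 4 and 7 in TKO_FL. In TKO_602 it was 4578, 12757 and 19891. At day 7 the sum was lower in TKO_602. Krt8 and Krt18 were the brightest of the list on both day 7 arrays, at 14.17 and 14.22 in TKO_FL and 12.70 and 12.92 in TKO_602. The sum therefore follows these keratin genes most. Elf5 read 8.22 on TKO_FL's day 7 array and was below the floor in TKO_602 on all 3 days.

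Visceral endoderm markers had 3 of 9 genes called higher at day 4 and 6 not called. They were Ttr (log2 3.70, SE 0.46, limma adjusted p = 0.017), Afp (log2 3.46, SE 0.64, limma adjusted p = 0.049) and the endocytic adaptor gene Dab2 (log2 2.38, SE 0.25, limma adjusted p = 0.010). Ttr and Afp were below the floor at day 0 in both lines, so their fitted values depend on where the floor is set, and 2 of the 5 Afp probe sets gave 0 and 0.03. The summed signal of the 10 markers was 970 at day 0, 3002 at day 4 and 1953 at day 7 in TKO_FL, and 940, 5349 and 5354 in TKO_602. The sum was thus higher in TKO_602 at days 4 and 7. At day 4 the median line difference of the 9 measured markers was 0.76, while Afp (-0.03) and Apob (-0.91) went the other way. A link to the Lgals2 levels was not tested. Apoa4 was below the floor on 5 of the 6 arrays.

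Fibroblast markers had 6 of 11 genes called lower at day 4 and 5 not called, among them S100a4 (log2 -3.98, SE 0.35, limma adjusted p = 0.006), Postn (log2 -3.91, with TKO_602's day 4 array set to the floor, SE 0.67, limma adjusted p = 0.041), the proteoglycan gene Bgn (log2 -3.56, SE 0.23, limma adjusted p = 0.002) and the collagen gene Col1a2 (log2 -3.42, SE 0.48, limma adjusted p = 0.025). Their summed signal was 6615, 1273 and 1960 in TKO_FL and 15571, 1132 and 2554 in TKO_602. Lgals1 was 0.29 and 0.39 higher at day 4 than at day 0 on the same arrays.

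Genes with the pattern most like each member were found by Pearson correlation of levels over the 6 arrays, among measured genes whose SD was at least 0.5 times that of the member. The arrays share lines and days, so r is a description. For the genes named here r stayed between 0.936 and 0.998 without TKO_602's day 0 array. For Lgals3 the 5 genes were Dnah12, an axonemal dynein gene (r = 0.979), the metallothionein gene Mt4 (0.976), Car8 (0.975), the small heat shock protein gene Hspb8 (0.970) and the crystallin gene Crygd (0.967). They were taken from 1942 candidate genes, of which 33 had r of at least 0.9. Hspb8 had levels of 9.36, 8.76 and 10.63 in TKO_FL and of 9.46, 8.67 and 10.66 in TKO_602. Of the dimmer Hspb8 probe sets, 1 gave a day 7 over day 4 change of -0.10 in TKO_602. Dnah12 was below the floor on 2 arrays and Crygd on 3, so their r rests in part on values set to the floor.

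For Lgals2 the 5 genes were Srgn, which encodes the proteoglycan serglycin (r = 0.969), the transcription factor gene Tfec (0.968), the aminopeptidase gene Enpep (0.963), Amn, a part of the vitamin B12 uptake receptor (0.955), and the endoderm transcription factor gene Sox17 (0.927). They came from 1175 candidates, 8 of them with r of at least 0.9. Amn stands in the visceral endoderm list used above. Tfec and Enpep were at the floor on all 3 arrays of TKO_FL and on TKO_602's day 0 array, and read 7.42 and 7.07 at day 4 and 6.54 and 6.97 at day 7 in TKO_602. Srgn had levels of 9.08, 9.62 and 10.37 in TKO_FL and of 8.92, 11.97 and 11.77 in TKO_602.

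**Figure D4:**
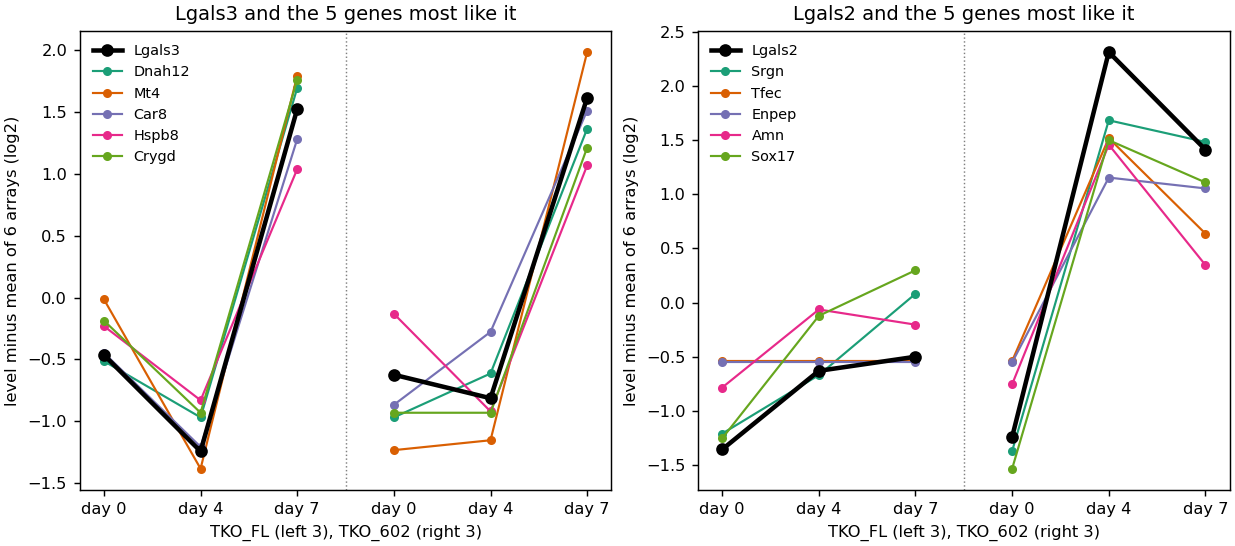
Level minus the mean of the 6 arrays (log2, vertical axis) for Lgals3 (left) and Lgals2 (right) in black with the 5 genes most like each, on the 3 TKO_FL arrays and the 3 TKO_602 arrays (horizontal axis). The Lgals3 set is highest on both day 7 arrays, and the Lgals2 set on TKO_602's arrays of days 4 and 7.

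Lgals8 was most like the myosin gene Myh7 (r = 0.996), Lamp2 (0.991) and Trim45 (0.990). Myh7 was near the floor, at 6.76 at most, and below it on TKO_602's day 4 array. The long noncoding RNA gene Xist (0.977), the major vault protein gene Mvp (0.972) and Dmkn (0.972) were most like Lgals9. Xist, the RNA that coats the inactive X chromosome, read 8.50, 8.01 and 10.07 in TKO_FL and 9.12, 8.08 and 9.67 in TKO_602. These values come from a probe set with the same suffix as the brighter Lgals2 set. The dimmer Xist probe sets were each below the floor on 3 arrays. One of them read 7.66 in TKO_FL and 5.58 in TKO_602 at day 7. Lgals1 was most like Rilpl1 (0.989), the lipoprotein receptor gene Scarb1 (0.987) and the tetraspanin gene Cd151 (0.983). Lgals3bp was most like Gda (0.984), which encodes guanine deaminase, Plxna2 (0.963) and Spr (0.962). Dimmer Plxna2 probe sets above the floor on all 6 arrays gave day 4 line differences of 1.29 and 0.35, against -0.80 at the brightest. The likeness of Plxna2 thus depends on the probe set.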

How the data were processed

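RNA of 6 mouse samples, labelled with biotin, was hybridised to Affymetrix arrays, as the labels' protocols say. The values that the authors deposited are MAS5 signals, per the submitters' processing notes, and were read here as log2. The base comes from their range, 0 to 15.68, and from a check of scale: 2 to their power gave trimmed means, with 2% left out at each end, of 496.7 to 496.9 on all 6 arrays. The MAS5 version, scaling target and log base are not stated in the labels.

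Signals below the floor, the median over arrays of the 40th percentile (41.2), were set to it. The platform annotation of 2016 named 34945 probe sets with 1 gene symbol, 932 with several and 9160 with none. Of the first, 34741 were found in the RefSeq table, with 0 symbols changed. A gene took its brightest probe set, and the 13277 of 18193 genes whose mean signal reached the floor were tested. limma 3.58.1 in R 4.3.3 fitted line and day as additive factors with a variance trend, two-sided, with Benjamini-Hochberg adjustment at 0.05. Residual degrees of freedom were 2, and prior ones 5.63. It was tested on simulated data, drawn with independent noise and changes equal in both lines, which 1 array per line and day cannot check.

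Single-array comparisons counted differences of 2-fold or more whose brighter level was 2 times the floor or more. Genes named are the members, the genes most like each (5 for Lgals3 and Lgals2, 3 for others, unnamed gene models left out), and up to 4 called genes of each list, or its 2 brightest. Others are named after their values were seen. The members and lists were chosen with earlier results of these data known. Alternatives changed the floor, scaling, probe set rule, filter, variance trend and line term, and left out each array.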

Additional observations from a re-analysis of the deposited data

Results flagged for a closer look

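The changes of the 2 lines had opposite signs in 5 cases, none of which could be tested with 1 array per line and day. Where 1 line changed by only 0.07, 0.13 or -0.08, that line was close to unchanged. From day 0 to day 4 the change of Lgals3bp differed between lines by -1.41 on the log2 scale, TKO_602 minus TKO_FL (0.07 against -1.34). From day 4 to day 7 the TKO_602 minus TKO_FL difference in change was -1.45 for Lgals1 (0.98 against -0.47), -1.03 for Lgals2 (0.13 against -0.90) and 1.28 for Lgals3bp (-0.57 against 0.71). From day 0 to day 7 it was -1.35 for Lgals1 (1.27 against -0.08). Both Lgals1 probe sets gave opposite signs in both cases. The dimmer Lgals2 probe set also gave opposite signs, but exchanged between the lines (-0.16 against 0.57).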

How the results depend on the processing

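The count of members called for day 4 over day 0 was 0 in all 14 alternatives, in which 0 to 319 genes of the whole table were called, so it says little where few genes passed. The count of members with a fitted day 7 over day 4 value above 0 stayed at 4 or 5. The count with a fitted line difference above 0 ranged from 2 to 4 when 1 array was left out, with 4 without either day 7 array, and was 2 in the other alternatives. With quantile normalization 1 member instead of 2 was at least 2-fold apart between lines at day 4, since Lgals3bp lay at that limit. The Lgals2 line difference was 1.05 with the floor at the 60th percentile and 1.14 with probe sets averaged. With probe sets averaged, 14 genes in all were called. Among them were 2 of the fibroblast markers in place of 6, 1 trophoblast marker in place of 2 and 1 pluripotent stem cell marker in place of 2, and 0 visceral endoderm markers in place of 3, with Cd44 and Lyz2 not called. The fit compares days within each line through its line term. Without that term 18 genes in all and 0 members were called. Without the variance trend 16 genes were called. When genes with a mean signal below the floor were kept, 0 of 18193 genes were called. Every gene call above thus depends on that filter. The correlations and the family median without TKO_602's day 0 array were added after seeing the data.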
